A study of Mus musculus with 6 samples.

Results

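The genes described here build the attachment of the basal keratinocyte layer to the basement membrane: the integrin subunit genes Itga6, Itgb4, Itga3 and Itgb1, the laminin chain genes Lama3 and Lamb3, the plakin genes Dst and Plec, and Trp63, the transcription factor gene of basal cells. These 9 genes were chosen by name from the 35275 genes listed, and 9 of the 9 were among the 15720 genes with enough counts to be tested. RNA was sequenced from the epithelial portion of back skin of C57BL/6 mice, with 3 libraries of the genotype IL-33 KO, which lacks the cytokine interleukin-33, and 3 wild-type (WT) ones. Both genotypes had received the contact allergen DNFB, at 0.25% in acetone and olive oil, on the back 3 times a week for 22 days, so every library comes from allergen-treated skin and untreated skin is not part of the comparison. The labels name the genotype without saying how the allele was made or in which cells it acts, and they do not state that each library came from a different mouse, so p-values rest on the spread among libraries, which may be technical.

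Basal keratinocytes are held to the basement membrane by hemidesmosomes. In these plaques the integrin heterodimer of the Itga6 and Itgb4 products binds laminin-332 outside the cell, a trimer to which the Lama3 and Lamb3 products contribute. Inside the cell, plectin (Plec) and the epithelial form of dystonin (Dst) tie the plaque to the keratin filaments made of Krt5 and Krt14. The integrin of the Itga3 and Itgb1 products binds the same laminin but connects to actin at focal adhesions, and p63 (Trp63) is the transcription factor that stratified epithelia need to form and to keep their basal layer.

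The libraries held 20459574 to 24359612 counts. Counts of Il33, the deleted gene, were 3906, 3086 and 2817 in WT 1, 2 and 3, against 21, 22 and 11 in the knockout libraries in the same order. The summed FPKM (fragments scaled by gene length and total count) of the basal keratin genes Krt5 and Krt14 was 11815 to 20325 per library, and that of 7 fibroblast markers was 2447 to 4869. Libraries stood apart in markers of other cells. Markers of the inner root sheath and hair shaft summed to 7988 FPKM in IL-33 KO 1 and to 3550 and 3703 in the other knockout libraries, against 1181, 900.4 and 2024 in WT 1, 2 and 3. Skeletal muscle markers summed to 73.8 and 141 FPKM in IL-33 KO 1 and 3 and to 2.97 to 4.82 FPKM in the other 4 libraries. In bulk tissue, fewer cells of a type and less RNA per cell cannot be told apart.

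Per gene length, the order of the 9 genes ran from Itgb1, the beta subunit shared by many integrins, with a mean of 126.7 FPKM over the 6 libraries, through Itga6 (97.0 FPKM), Lamb3 (67.6), Trp63 (54.8), Itgb4 (34.5), Itga3 (30.0), Lama3 (27.1) and Plec (22.3) to Dst (12.1 FPKM). The first was 10.4 times the last. FPKM divides by 1 listed length per gene. For Dst this was 24236 bases, while its annotated coding transcripts have 776 to 23279. Which forms were expressed is not known, so the order and this ratio depend on the listed lengths. Each gene was above its next neighbour in 6 of 6 libraries for Itgb1, Itga6, Trp63 and Plec, in 5 of 6 for Lamb3, Itgb4 and Lama3, and in 4 of 6 for Itga3 over Lama3. Lamb3 and Trp63, and the run from Itgb4 through Itga3 and Lama3 to Plec, therefore have no full order that holds in every library. Within that run, Itgb4 and Itga3 were each above Plec in every library. All 9 were abundant transcripts, with a mean CPM (counts scaled to a common, composition-corrected library size) above that of at least 92.5% of the tested genes.

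**Figure D1:**
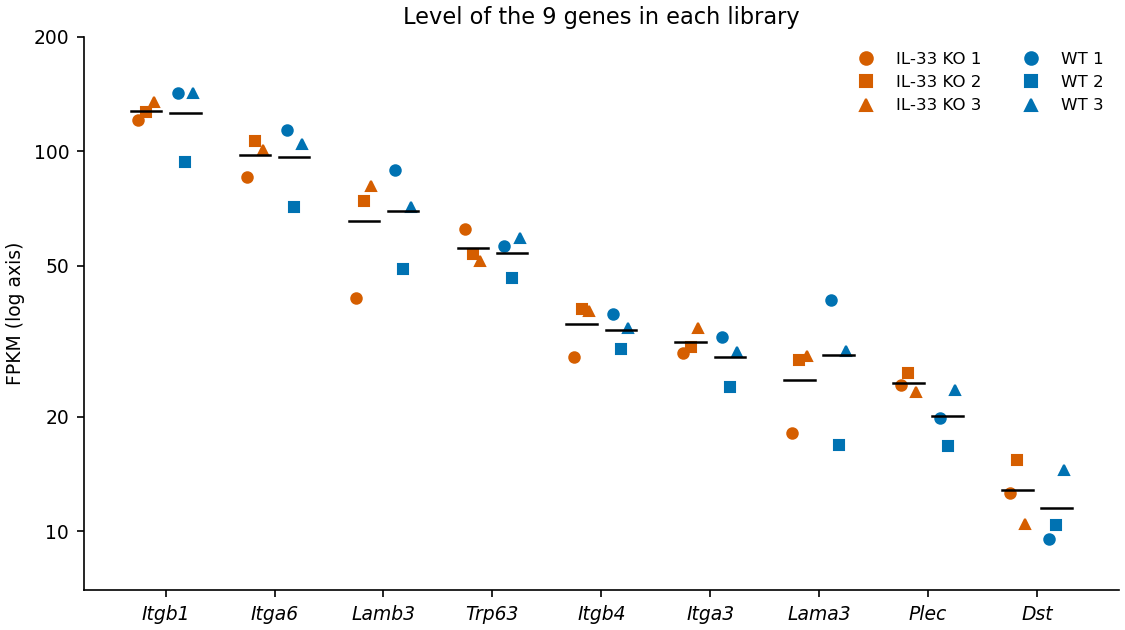
Level of the 9 genes in FPKM on a log axis, with 1 point per library (circle, square and triangle for libraries 1, 2 and 3 of a genotype) and a line at the mean of each genotype. In FPKM the points of the genotypes overlap for each gene, and IL-33 KO 1 and WT 2 are the low points of Lama3 and Lamb3.

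In mm10 coordinates, as deposited, Itga6 lies at chr2:71745616-71858416 (plus strand), Itgb4 at chr11:115974709-116008412 (plus), Itga3 at chr11:95044474-95076801 (minus) and Itgb1 at chr8:128685654-128733200 (plus). Lamb3 lies at chr1:193301957-193343878 (plus), Dst at chr1:33908225-34308661 (plus), Plec at chr15:76170974-76232574 (minus) and Trp63 at chr16:25683763-25892102 (plus). GENCODE M21 gives Dst 14 coding transcripts of 776 to 23279 bases, Plec 21 and Trp63 8, and the deposited tables hold 1 value per gene. The epithelial, neuronal and muscle forms of dystonin, the many first exons of plectin and the long and short forms of p63 are thus pooled here. Plec shares part of its span with Parp10 on the same strand, which had 4565 counts over the 6 libraries against 46896 for Plec.

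The RefSeq promoter table (GRCm38.p6) held entries for Itga3, Itgb1, Lamb3 and Dst that are shown here, since the integrin and laminin genes moved together between libraries while Dst did not. Each run covers the bases before a transcript start, 5′ to 3′ on the gene's strand, and stops where an annotated exon begins. Capitals mark GGGCGG, the GC box bound by Sp and KLF factors, on either strand.
Lamb3, chr1:193301744-193301956, plus strand: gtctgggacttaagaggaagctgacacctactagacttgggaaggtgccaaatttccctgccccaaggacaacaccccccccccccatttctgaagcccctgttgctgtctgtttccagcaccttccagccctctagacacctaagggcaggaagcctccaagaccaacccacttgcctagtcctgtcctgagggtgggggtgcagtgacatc
Itgb1, chr8:128685404-128685653, plus strand: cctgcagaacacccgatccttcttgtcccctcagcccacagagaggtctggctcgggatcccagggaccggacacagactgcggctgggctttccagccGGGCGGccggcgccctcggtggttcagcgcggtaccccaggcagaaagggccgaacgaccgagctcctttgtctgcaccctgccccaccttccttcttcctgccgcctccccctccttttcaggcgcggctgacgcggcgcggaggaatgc
Itga3, chr11:95076802-95076964, minus strand: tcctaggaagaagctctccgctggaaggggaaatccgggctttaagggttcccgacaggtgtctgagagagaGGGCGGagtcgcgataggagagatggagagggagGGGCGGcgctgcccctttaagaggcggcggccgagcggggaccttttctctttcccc
Dst, upstream start, chr1:34011345-34011594, plus strand: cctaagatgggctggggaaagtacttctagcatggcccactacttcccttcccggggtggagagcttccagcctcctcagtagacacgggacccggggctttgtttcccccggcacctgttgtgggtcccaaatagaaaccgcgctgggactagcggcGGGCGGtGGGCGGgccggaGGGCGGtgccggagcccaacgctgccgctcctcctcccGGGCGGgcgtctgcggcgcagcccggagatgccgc
Dst, downstream start, chr1:34160010-34160259, plus strand: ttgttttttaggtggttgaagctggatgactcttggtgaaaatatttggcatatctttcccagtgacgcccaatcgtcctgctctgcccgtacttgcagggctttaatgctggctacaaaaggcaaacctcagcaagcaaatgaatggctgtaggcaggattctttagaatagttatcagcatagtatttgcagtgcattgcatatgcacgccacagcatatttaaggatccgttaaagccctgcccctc
Over the full 250 bases before these starts, the GC box occurred 4 times at the upstream Dst start, 3 times at Itga3 (1 of them in the stretch that is not printed), once at Itgb1 and not at Lamb3 or the downstream Dst start. Of 32851 promoters of the same length, 32.7% held it. The AP-1 motif TGANTCA was in 0 of these 5 windows and in 6.75% of all promoters, and the p53-family half-site was in 0 of the 5 and in 7.13% of all, both strands searched. The GC content was 58.8% at Lamb3, 68.0% at Itgb1, 67.6% at Itga3, 68.8% at the upstream Dst start and 45.2% at the downstream one. Itga3 and Lamb3 each had a second entry, which is not shown. That of Itga3 had a GC content of 50.8% and 1 GC box, and that of Lamb3 61.2% and 0.

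The genotype comparison asked whether loss of IL-33 goes with another level of the basal adhesion genes in allergen-treated skin. None of the 9 genes passed in edgeR's quasi-likelihood test, with adjusted p of 0.668 to 0.965 over all tested genes, where 0.0191% of tested genes (3 of 15720) passed. At an unadjusted p under 0.05 the count was also 0 of 9 in edgeR and 0 of 9 in DESeq2, against 9.02% of all tested genes in edgeR. Means were lower in IL-33 KO for 6 genes and higher for 3, where 52% of all tested genes were lower. The median log2 fold change of the 9 was -0.03, beside -0.01 for all tested genes. For 8 of the 9 genes the 95% interval lay inside a 2-fold change either way, as it did for 74.2% of tested genes, and Lama3 was the exception. For 7 genes, all but Lama3 and Lamb3, the interval lay inside a 1.5-fold change.

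**Figure D2:**
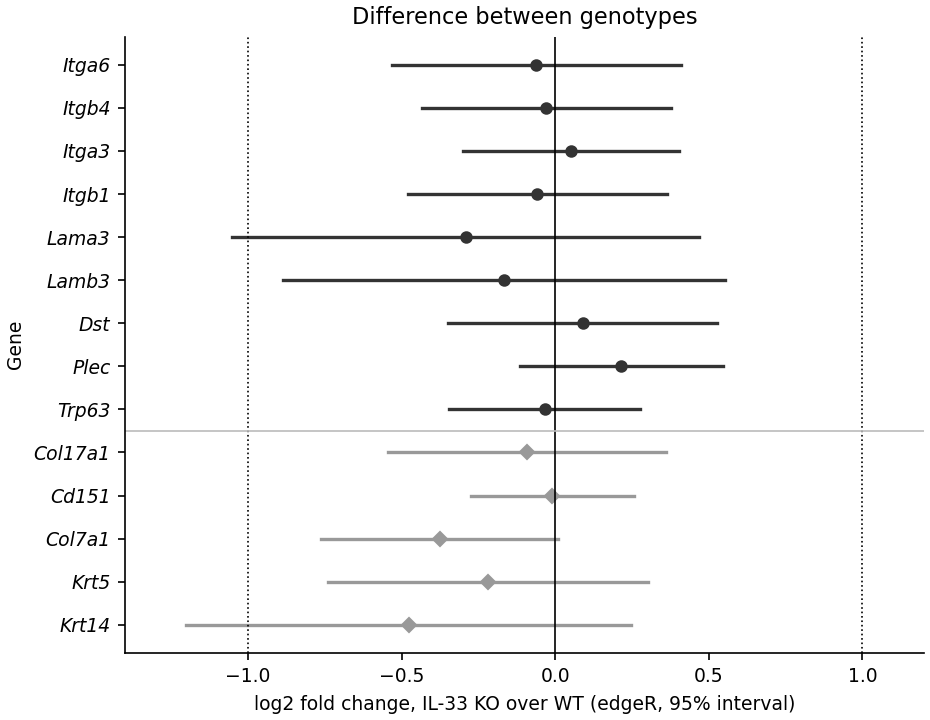
Log2 fold change of IL-33 KO over WT from edgeR with its 95% interval for the 9 genes (dark circles) and 5 hemidesmosome and anchoring partners (grey diamonds), with dotted lines at a 2-fold change. Each interval holds 0, and those of Lama3 and Krt14 reach past a 2-fold decrease.

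Among the hemidesmosome integrin genes, Itga6 (ENSMUSG00000027111), the alpha subunit that binds laminin, had CPM values of 343.0, 458.7 and 429.0 for IL-33 KO 1, 2 and 3, and of 526.8, 326.5 and 431.0 for WT 1, 2 and 3. The highest and the lowest value were both in WT, so the IL-33 KO libraries lay inside the WT range. The means were 410.2 ± 60.1 CPM and 428.1 ± 100 CPM (SD, n = 3 each), and the log2 fold change was -0.06 ± 0.20 (SE; 95% interval -0.53 to 0.41; adjusted p 0.936 in edgeR). Itgb4 (ENSMUSG00000020758), whose long cytoplasmic tail recruits plectin, had CPM values of 166.3, 238.6 and 233.5 for the IL-33 KO libraries and of 248.9, 199.5 and 203.1 for the WT libraries. IL-33 KO 1 was the low library here, and IL-33 KO 2 and 3 lay between WT 1 and the other WT libraries. Its log2 fold change was -0.03 ± 0.18 (SE; interval -0.43 to 0.38; adjusted p 0.965 in edgeR).

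Among the focal adhesion integrin genes, Itga3 (ENSMUSG00000001507), the alpha subunit that pairs with Itgb1 on laminin-332, had CPM values of 133.5, 147.9 and 164.8 for the IL-33 KO libraries and of 168.9, 123.8 and 138.0 for the WT libraries. Again WT 1 was highest and WT 2 lowest, with all IL-33 KO libraries between them. The log2 fold change was 0.05 ± 0.15 (SE; interval -0.30 to 0.40; adjusted p 0.928 in edgeR). Itgb1 (ENSMUSG00000025809) had CPM values of 429.2, 482.0 and 509.9 for the IL-33 KO libraries and of 582.8, 379.9 and 517.3 for the WT libraries, with WT 1 and WT 2 as the extremes. Its log2 fold change was -0.06 ± 0.18 (SE; interval -0.48 to 0.36; adjusted p 0.932 in edgeR).

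The laminin chain genes varied most between libraries of 1 genotype. Lama3 (ENSMUSG00000024421), the alpha chain of laminin-332 that the integrins bind, had CPM values of 178.4, 296.8 and 301.2 for the IL-33 KO libraries and of 460.3, 189.2 and 300.6 for the WT libraries. WT 1 was 2.58 times IL-33 KO 1, and the genotypes overlapped. The means were 258.8 ± 69.7 and 316.7 ± 136 CPM (SD, n = 3 each), and the log2 fold change was -0.29 ± 0.33 (SE; interval -1.05 to 0.47; adjusted p 0.793 in edgeR). Lamb3 (ENSMUSG00000026639), the beta chain, had CPM values of 157.1, 302.4 and 328.0 for the IL-33 KO libraries and of 392.5, 213.0 and 278.3 for the WT libraries. WT 1 was again highest and IL-33 KO 1 lowest, with a ratio of 2.50 between them. Its log2 fold change was -0.17 ± 0.31 (SE; interval -0.88 to 0.55; adjusted p 0.879 in edgeR). The within-genotype SD of log2 CPM was 0.55 for Lama3 and 0.52 for Lamb3, against 0.13 to 0.29 for the other 7 genes and a median of 0.23 over all tested genes. Counting error was at most 1.88% of the value for any of the 9 genes in any library, a figure that covers read counting only.

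The plakin genes did not follow the laminin genes. Dst (ENSMUSG00000026131) had CPM values of 284.9, 372.0 and 250.3 for the IL-33 KO libraries and of 248.5, 267.6 and 336.4 for the WT libraries. IL-33 KO 2 and WT 3 were the high libraries, and WT 1, highest in CPM for the integrins and laminins, was lowest. The log2 fold change was 0.09 ± 0.19 (SE; interval -0.35 to 0.53; adjusted p 0.894 in edgeR). Plec (ENSMUSG00000022565), the cytolinker between Itgb4 and keratin, had CPM values of 349.0, 402.5 and 356.6 for the IL-33 KO libraries and of 329.6, 276.4 and 348.2 for the WT libraries. It was the 1 gene of 9 whose genotypes did not overlap in CPM, as was the case for 13.9% of all tested genes, and the lowest IL-33 KO library exceeded the highest WT library by less than 1 CPM. In FPKM, which is scaled to total counts alone, its IL-33 KO values of 24.2, 26.1 and 23.3 overlapped with the WT values of 19.9, 16.8 and 23.6. The means were 369.4 ± 29.0 and 318.1 ± 37.2 CPM (SD, n = 3 each), with a log2 fold change of 0.22 ± 0.14 (SE; interval -0.11 to 0.55), an unadjusted p of 0.169 and an adjusted p of 0.668 in edgeR. Skeletal muscle also expresses Plec and Dst. The muscle markers summed to 73.8, 2.97 and 141 FPKM in IL-33 KO 1, 2 and 3, and their part in the Plec and Dst values was not tested.

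Trp63 (ENSMUSG00000022510) was the steadiest of the 9 genes. It had CPM values of 311.7, 287.0 and 272.9 for the IL-33 KO libraries and of 325.0, 264.3 and 302.7 for the WT libraries, and its highest library was 1.23 times its lowest. The means were 290.5 ± 19.7 and 297.3 ± 30.7 CPM (SD, n = 3 each), and the log2 fold change was -0.03 ± 0.13 (SE; interval -0.34 to 0.28; adjusted p 0.950 in edgeR). As a fold, this interval ran from 0.788 to 1.21.

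The small differences were not equally stable in direction. For Itga6, Itgb4 and Itgb1 the direction turned in 7 of the 18 other fits, and for Trp63 in 6. For Lamb3 it turned in 3, for Itga3 and Lama3 in 2, and for Dst in 1. Of the 9 genes 6 were lower in IL-33 KO in the test on all libraries, 0 were lower without WT 1, 2 without IL-33 KO 1, and 2 with library sizes taken as total counts, a scaling that moved the median of all genes from -0.01 to 0.07. Plec kept a higher mean in IL-33 KO in each of the 18 other fits, at log2 fold changes of 0.13 to 0.30, and its smallest adjusted p was 0.380, in edgeR without WT 3. None of the 9 genes passed in any of these fits, nor had an unadjusted p under 0.05.

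Across libraries, the integrin and laminin genes shared their extremes in CPM. WT 1 held the highest CPM of all 6 of them, where 18.3% of all tested genes were highest in that library. The lowest CPM was in IL-33 KO 1 for Itgb4, Lama3 and Lamb3, and in WT 2 for Itga6, Itga3 and Itgb1. In FPKM, scaled to total counts alone, Itgb4 was highest in IL-33 KO 2 (38.5 against 37.3 in WT 1) and Itga3 in IL-33 KO 3 (34.3 against 32.3). The remaining genes of the 6 stayed highest in WT 1. Lama3 was lowest in WT 2 in FPKM (16.9 against 18.2 in IL-33 KO 1). Over all tested genes, 15.8% were lowest in IL-33 KO 1 and 22.7% in WT 2. In log2 CPM relative to its mean over the 6 libraries, Lama3 stood at 0.75 in WT 1, -0.53 in WT 2 and -0.62 in IL-33 KO 1. Lamb3 stood at 0.56, -0.33 and -0.77. Trp63 stood at 0.15, -0.15 and 0.09 in the same libraries. IL-33 KO 1 and WT 2, the low libraries, lay at opposite ends of the marker sums of other layers. Suprabasal markers (Krt1, Krt10, Lor, Ivl and Flg) summed to 3861 FPKM in IL-33 KO 1, the lowest, and to 12643 FPKM in WT 2, the highest, and the inner root sheath and hair shaft sum was highest in IL-33 KO 1 and lowest in WT 2. The part of these cell types in the laminin values was not tested.

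**Figure D3:**
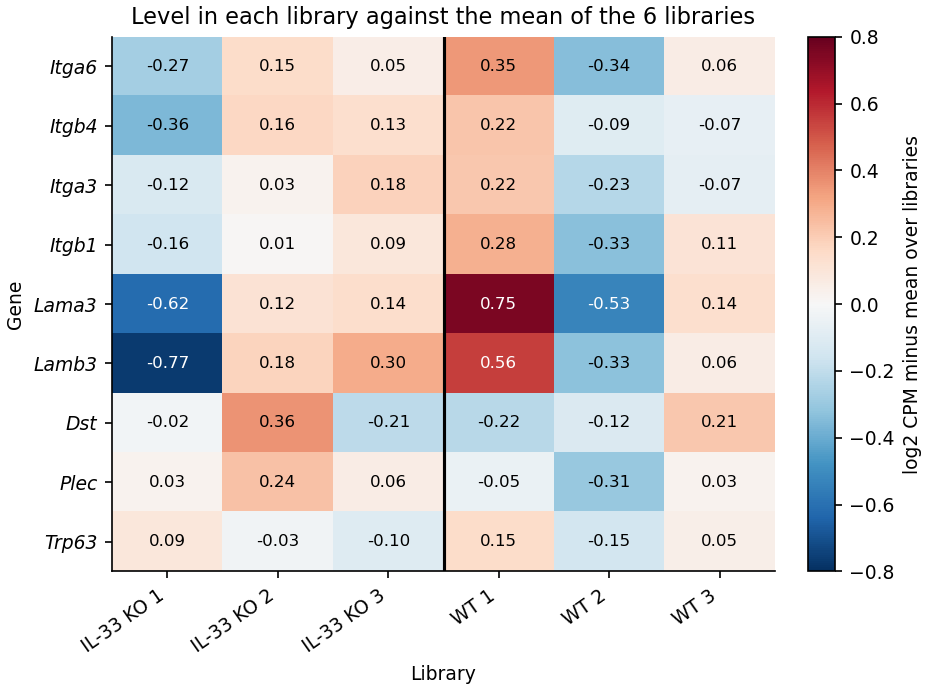
Log2 CPM of each of the 9 genes in each library minus the mean of the 6 libraries, with IL-33 KO libraries left and WT libraries right of the black line. WT 1 is above 0 for 7 of the 9 genes, WT 2 is below 0 for each of them, and the deepest colours are Lama3 and Lamb3 in IL-33 KO 1 and WT 1.

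**Figure D4:**
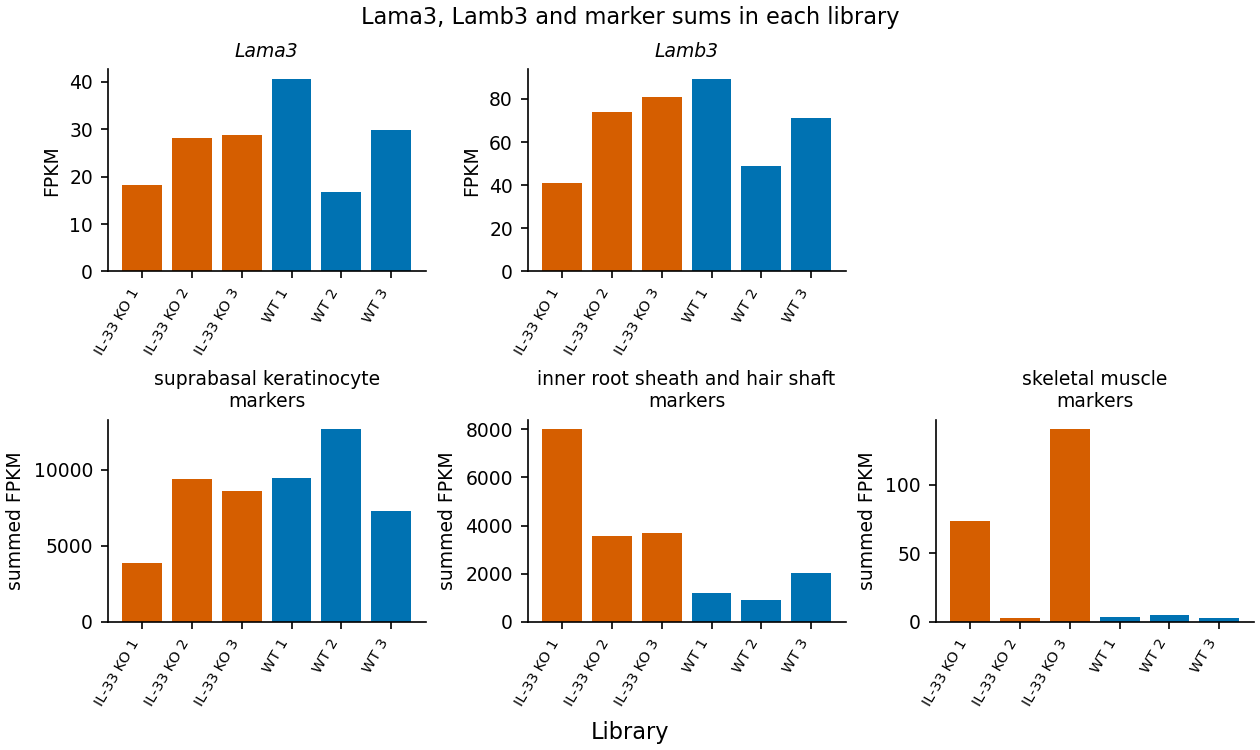
FPKM of Lama3 and Lamb3 and summed FPKM of 3 marker lists in each library (IL-33 KO orange, WT blue), on axes that start at 0. Lama3 and Lamb3 have their low bars in IL-33 KO 1 and WT 2, and the inner root sheath sum is 7988 in IL-33 KO 1.

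Partners were compared within each library as ratios of FPKM, which are free of library size but whose size depends on the listed gene lengths. The ratio of Itga6 to Itgb4 was 2.97, 2.77 and 2.65 for the IL-33 KO libraries against 3.05, 2.36 and 3.06 for WT. The ratio of Itga3 to Itgb1 was 0.246 ± 0.00663 in IL-33 KO against 0.231 ± 0.0233 in WT, and that of Lama3 to Lamb3 was 0.393 ± 0.0434 and 0.406 ± 0.0563 (SD, n = 3 each). The laminin ratio ran from 0.345 to 0.455 over the 6 libraries, while the level of either gene changed more than 2-fold. The ratio of Dst to Plec was 0.519 ± 0.0708 and 0.571 ± 0.0784. Each ratio overlapped between genotypes, and the 4 two-sided exact permutation tests gave p of 0.4 to 1 (adjusted p of 1 for each), where 3 against 3 cannot go below 0.1.

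As a share of the basal keratins Krt5 and Krt14, the 9 genes had a higher mean in IL-33 KO. Both keratins were themselves lower in IL-33 KO, with edgeR log2 fold changes of -0.22 for Krt5 and -0.48 for Krt14. The median of the 9 genes in edgeR was -0.03. Itga6 stood at 0.723%, 0.711% and 0.627% of the summed Krt5 and Krt14 FPKM for IL-33 KO 1, 2 and 3, against 0.560%, 0.369% and 0.763% for WT 1, 2 and 3. For Plec the values were 0.205%, 0.174% and 0.145% against 0.0977%, 0.0871% and 0.172%. WT 3 lay among or above the IL-33 KO libraries for both, and for each of the 9 genes the genotypes overlapped. The log2 differences ran from 0.15 for Lama3 to 0.61 for Plec with a median of 0.35, and two-sided exact permutation p ran from 0.2 to 1 (adjusted p at least 0.6), with 0.1 as the smallest possible. These differences moved with single WT libraries. Without WT 2 those of Lama3 and Lamb3 turned to -0.27 and -0.11, those of Itga6 and Itgb1 were 0.07 and 0.08, and the median of the 9 was 0.18. Without WT 3 they were 0.39, 0.41, 0.59 and 0.63 for the same genes, and the median was 0.60. The denominator itself was 11815, 14984 and 16055 FPKM for the IL-33 KO libraries, and 20325, 19295 and 13713 FPKM for the WT libraries.

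**Figure D5:**
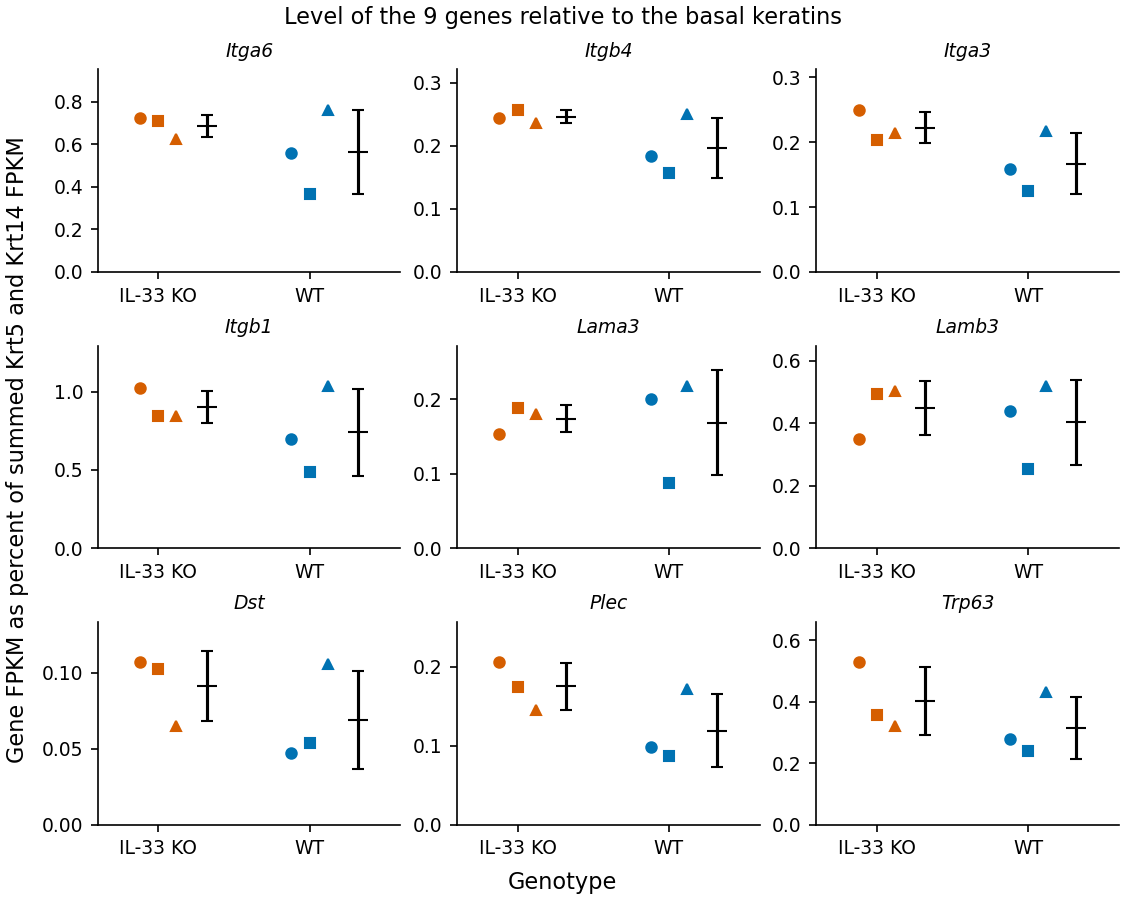
FPKM of each of the 9 genes as a percentage of the summed FPKM of Krt5 and Krt14, for IL-33 KO (orange) and WT (blue), with circles, squares and triangles for libraries 1, 2 and 3 and black bars for the mean ± SD. WT 3 lies above at least 1 IL-33 KO library in each panel.

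None of the other genes of the adhesion complex passed in edgeR or in DESeq2. Of 6 hemidesmosome and anchoring partners, 6 had lower means in IL-33 KO, 0 passed, 0 had an unadjusted p under 0.05 in edgeR and the median log2 fold change was -0.16. Without IL-33 KO 1, 3 of the 6 were lower. Col7a1, the collagen of the anchoring fibrils beneath the hemidesmosome, had CPM values of 213.6, 296.3 and 310.4 for the IL-33 KO libraries and of 374.4, 353.6 and 336.8 for the WT libraries. All its IL-33 KO libraries lay below all WT libraries, with a difference of -0.38 ± 0.17 (log2, SE; adjusted p 0.560 in edgeR). Krt14, the acidic basal keratin, had 16774 against 23341 CPM (-0.48 ± 0.31, adjusted p 0.666), and its partner Krt5 had 8919 against 10382 CPM (-0.22 ± 0.23, adjusted p 0.771). Col17a1, the transmembrane collagen of the hemidesmosome, had 810.0 ± 200 and 862.9 ± 29.1 CPM (SD, n = 3 each). Cd151, a tetraspanin that associates with the laminin-binding integrins, had 93.4 and 94.1 CPM.

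Of 20 other basement membrane genes, 13 had higher and 7 lower means in the knockout, and the median was 0.07 (log2). In edgeR 0 passed and 3 had an unadjusted p under 0.05, as did 9.02% of all tested genes. Lama5, the alpha chain of the laminins of the interfollicular and follicular basement membrane, had 98.9 against 67.9 CPM (0.54 ± 0.18, adjusted p 0.487), and Fras1, a protein of the basement membrane zone, had 13.9 against 9.34 CPM (0.57 ± 0.24, adjusted p 0.547). Of 13 other integrin subunits, 9 were higher and 4 lower, 0 passed and 1 had an unadjusted p under 0.05. That gene was Itga11, a collagen-binding subunit of fibroblasts, at 21.2 against 32.8 CPM (-0.63 ± 0.21, adjusted p 0.475). Itga5, of the fibronectin receptor, had 48.4 against 62.95 CPM (-0.38 ± 0.18, adjusted p 0.576). For Itga11 and Itga5 the genotypes did not overlap in CPM but did in FPKM, where the highest IL-33 KO value was 5.19 against a lowest WT value of 4.89 for Itga11 and 12.1 against 11.5 for Itga5. The log2 fold change of Itga5 was -0.15 without WT 1, and that of Itga11 was -0.38 without WT 3. The fibroblast markers summed to 2447 to 2944 FPKM in IL-33 KO against 2477, 2890 and 4869 FPKM in WT, and Itga11 was highest in WT 3, the library with the highest sum; the part of fibroblasts in this difference was not tested.

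Of 10 tested focal adhesion genes, 6 were higher and 4 lower, and 0 passed in edgeR. Beside 9.02% of all tested genes, 1 of the 10 had an unadjusted p under 0.05 in edgeR. This was Tln2, a talin that links integrins to actin, at 37.2 against 26.2 CPM (0.50 ± 0.20, adjusted p 0.531). Pxn, the adaptor paxillin, had 85.2 against 73.0 CPM (0.22 ± 0.12, adjusted p 0.615). Ilk, the integrin-linked kinase gene, had 11 counts in all and was not tested, while Taf10 and Rrp8, which overlap it on the opposite strand, had 10771 and 3317 counts. Without knowing how strand was used in counting, the level of Ilk is uncertain. Of 4 tested other plakin genes, 4 were higher and 0 passed, with a median of 0.13; Macf1, which links microtubules and actin, had 370 against 334 CPM (0.15 ± 0.16, adjusted p 0.778) and Evpl, envoplakin of the cornified envelope, 417 against 375 CPM (0.15 ± 0.17, adjusted p 0.786). Macf1 came to 0.037 without WT 2 and Evpl to 0.039 without WT 3.

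Of 13 genes known as targets or partners of p63, 5 were higher and 8 lower, and the median was -0.15 (log2). In edgeR 0 passed and 2 had an unadjusted p under 0.05, as did 9.02% of all tested genes. The smallest p was that of Jag1, a Notch ligand, with CPM values of 151.4, 137.0 and 127.3 for the IL-33 KO libraries and of 87.6, 110.8 and 91.7 for the WT libraries. Its IL-33 KO libraries all lay above its WT libraries, with a difference of 0.52 ± 0.14 (log2, SE; adjusted p 0.402 in edgeR). Hair follicle cells also express Jag1, and the inner root sheath and hair shaft sum was higher in 3 of 3 knockout libraries than in any WT one, and its part in the Jag1 difference was not tested.

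In the marker lists of other cells and layers, 0 genes passed in edgeR on all libraries, whereas DESeq2 called 5 of 8 inner root sheath and hair shaft genes, 6 of 8 skeletal muscle genes and 1 of 9 outer root sheath and bulge genes, all higher in IL-33 KO. Over all 15720 tested genes, DESeq2 called 206, of which 159 were higher. Suprabasal markers were lower in 5 of 5 genes (median -0.53), each with overlap between the genotypes. Flg, filaggrin, had 836 against 1341 CPM (-0.68 ± 0.35, adjusted p 0.601 in edgeR). Ivl, involucrin, had 172 against 222 CPM (-0.37 ± 0.20, adjusted p 0.607). Their summed FPKM was 3861, 9399 and 8610 for IL-33 KO 1, 2 and 3, and 9440, 12643 and 7316 for WT 1, 2 and 3. Inner root sheath and hair shaft markers were higher in 8 of 8 tested genes, each without overlap (median 1.89), against 13.9% of all tested genes without overlap. Krt72 had 452 against 98.9 CPM (2.19 ± 0.29, adjusted p 0.125) and Krt71 3245 against 923 CPM (1.81 ± 0.37, adjusted p 0.280). In DESeq2 their adjusted p was 1.42e-11 and 2.57e-05, and in edgeR Krt72 also passed with no filter on low counts (adjusted p 0.00528) and without WT 3 (0.0404). Outer root sheath and bulge markers, whose cells carry hemidesmosomes as well, were higher in 6 and lower in 3 genes (median 0.12), with summed FPKM of 2616 to 2882 in IL-33 KO and 2474 to 3186 in WT. Krt75, the companion layer keratin, had 260 against 102 CPM (1.36 ± 0.33, adjusted p 0.371 in edgeR and 0.00401 in DESeq2) and Nfatc1, of bulge stem cells, 40.1 against 50.4 CPM (-0.33 ± 0.13, adjusted p 0.533).

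Skeletal muscle markers were higher in 8 of 8 tested genes (median 3.17), 4 of them without overlap, against 13.9% of all tested genes. Of the 10 listed, Tnnt3 and Myh4 were not tested. Acta1 and Actn3 (at most 0.353 and 0.393 CPM in WT) had enough counts to be tested through their knockout libraries alone. For both, a higher knockout mean was thus fixed by the filter. With a CPM of at least 1 in 3 libraries required, 4 of the 8 stayed in the fit. Acta1, muscle actin, reached at most 0.353 CPM in WT but 38.1 and 60.8 CPM in knockout libraries 1 and 3, with 0.548 CPM in library 2 (adjusted p 0.314 in edgeR, 0.00293 in edgeR without IL-33 KO 2 and 4.20e-04 in DESeq2). Ryr1, the muscle calcium channel, had 9.82 against 2.99 CPM (1.71 ± 0.40, adjusted p 0.354 in edgeR and 0.00280 in DESeq2). Schwann cell markers, whose cells also express Itga6, Itgb4 and Dst, were higher in 3 and lower in 4 genes (median -0.01), with Prx at 10.8 against 7.97 CPM (adjusted p 0.547) and Pmp22 at 53.8 against 66.3 CPM (0.644; log2 fold change -0.30, and -0.085 without WT 3). Their summed FPKM was 49.2 to 55.6 in IL-33 KO and 46.0 to 74.6 in WT. Endothelial markers were higher in 4 and lower in 2 genes (median 0.07), with Vwf at 38.5 against 30.0 CPM (0.537) and Tek at 12.1 against 9.15 CPM (0.579). Smooth muscle markers were higher in 4 and lower in 1 (median 0.36), with Des at 19.96 against 8.99 CPM (0.547) and Tagln at 90.7 against 69.6 CPM (0.656). Des, which skeletal muscle expresses too, was highest in IL-33 KO 3 at 35.6 CPM, and its log2 fold change of 1.15 came to 0.43 without that library. Tagln came from 0.38 to 0.12 without IL-33 KO 1. Fibroblast markers were higher in 1 and lower in 6 (median -0.40), with Mmp2 at 247 against 345 CPM (0.412) and Lum at 250 against 395 CPM (0.509). Leukocyte markers were higher in 1 and lower in 4 (median -0.23), with Cd68 at 27.5 against 35.6 CPM (0.587) and Itgam at 41.5 against 49.4 CPM (0.802). No gene of these lists was at 0 in all libraries.

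Among all other tested genes, 4 of the 5 whose log2 CPM over the 6 libraries was most like the mean standardised log2 CPM of the 9 genes were Nampt (Pearson r = 0.986), Sema6d (0.978), Psg18 (0.976) and Oasl2 (0.975). These values describe 6 libraries, within which all genes share depth and preparation, and they were picked as the highest of all tested genes. The mean is weighted towards the integrin and laminin genes, which are 6 of the 9. The adjusted p of Nampt, Sema6d, Psg18 and Oasl2 in edgeR was 0.908 to 0.971. They were picked for likeness to the mean of 9 genes that did not pass, so this is no separate result.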

How the data were processed

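RNA-seq of 6 libraries was analysed, 3 per genotype, grouped by the sample titles. The authors deposited 2 tables of 35275 genes, one of read counts in whole numbers and one of FPKM. The deposited FPKM equal the count divided by the listed length and the total count within a relative difference of 2.78e-07. STAR, RSEM and the mm10 genome are named in the submitters' processing notes, without versions. No source used here says how strand was treated.

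The test on counts used edgeR 4.0.16 under R 4.3.3: filterByExpr, TMM scaling, the quasi-likelihood F test of genotype, two-sided, and Benjamini-Hochberg adjustment over 15720 genes with a threshold of 0.05. Standard errors were derived from the F statistic. The biological coefficient of variation was 21.3%. CPM use TMM-scaled library sizes. FPKM served for levels between genes, ratios and marker sums, compared with exact permutation tests where a p is given. The test was run on simulated data first.

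Named were the 9 genes, in each list the 2 tested genes with the smallest p and any that passed, and, of the 5 genes most like the mean of the 9, the 4 that are reported here. Cd151, Col17a1 and Krt5 were added as parts of the complex. Ilk, Taf10, Rrp8, Parp10, Tnnt3, Myh4 and Actn3, and the further marker genes called in other fits, were added after their values were seen. The 9 genes and the lists were chosen with earlier results of these data known, so their directions are not independent evidence. Of the listed symbols, Eppk1 and Krt85 were not matched. The 4 ratios pair products of 1 heterodimer, trimer or plaque.

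Alternatives were RLE, upper-quartile and total-count scaling, other filters, DESeq2 1.42.0, limma 3.58.1 (voom, and trend on log2(FPKM + 1) and log2(FPKM + 0.1), with a minimum FPKM of 1 in 3 libraries or with no minimum), a replicate block and each library left out. Each pair of libraries differed beyond counting noise (chi-square at least 33.7 per degree of freedom). Promoters came from RefSeq and transcripts from GENCODE M21. Figures were drawn with matplotlib 3.10.9.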

Additional observations from a re-analysis of the deposited data

How the results depend on the processing

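None of the 9 genes passed the threshold under any alternative, and the smallest adjusted p was 0.380 (Plec in edgeR without WT 3). Over all genes, 3 passed in edgeR with TMM or RLE scaling, 5 each with upper-quartile scaling, total counts or a CPM of at least 1 in 3 libraries, 33 with no filter on low counts, 206 in DESeq2 (159 higher and 47 lower), 11 in limma-voom, 15 with log2(FPKM + 1), 11 with log2(FPKM + 0.1), 6 with log2(FPKM + 1) and no filter, 2 to 24 (24 without WT 3) when 1 library was left out, and 1 when IL-33 KO 1 and WT 1 were left out together, a setting chosen after seeing the data. Among the marker genes with values given above, Krt72, Krt71, Krt75, Acta1 and Ryr1 gained a call in DESeq2. Krt72 and Acta1 gained one in edgeR fits (Krt72 with no filter or without WT 3, Acta1 without IL-33 KO 2). DESeq2 also called Krt25, Krt27 and Tchh of the inner root sheath list and Ckm, Actn3, Neb and Myh1 of the muscle list. Myh1 was called as well in edgeR without IL-33 KO 2.

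Directions near 0 turned. With total counts the log2 fold change was 0.015 for Itga6, 0.049 for Itgb4, 0.018 for Itgb1 and 0.049 for Trp63. With log2(FPKM + 1), filtered or not, it was 0.036, 0.040, 0.042 and 0.051 for the same genes, and with log2(FPKM + 0.1) 0.037, 0.041, 0.042 and 0.052. With IL-33 KO 1 and WT 1 left out it was 0.23 for Itga6 and Itgb4, 0.14 for Itgb1, 0.29 for Lama3, 0.36 for Lamb3, 0.081 for Itgam and -0.021 for Tagln, and the median of the 9 was 0.23. With no library left out, the median log2 difference of the 9 per Krt5 and Krt14 was 0.35. Leaving out 1 library gave -0.22 to 0.12 for Itga6, -0.12 to 0.12 for Itgb4, -0.043 to 0.19 for Itga3, -0.21 to 0.081 for Itgb1, -0.55 to 0.083 for Lama3, -0.36 to 0.099 for Lamb3, -0.087 to 0.23 for Dst, -0.11 to 0.037 for Trp63, -0.52 to 0.17 for Itgam, -0.48 to -0.15 for Itga5, and 3 to 6 of the 6 partners lower. The cause was not tested.

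Same-numbered libraries showed no positive correlation of their deviations from the genotype mean (r of -0.26, -0.12 and -0.38). The labels do not say whether the numbers pair mice, and with 3 libraries per genotype these values cannot settle it. With the replicate block 2 genes passed, none of them among the 9. Counting error was at most 1.88% of a value of the 9 genes, and depth was not tested otherwise.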
